A study of Mus musculus with 13 samples.

Results

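Splenic CD4+ T helper cells that expressed an Eomes-GFP reporter (GFP+) were compared with the cells without reporter signal (GFP-) from the same 4-1BB-treated mice. The comparison used 6 of the 13 libraries, chosen by their names: 3 GFP+ and 3 GFP- libraries, joined in pairs by a shared library prefix that was read as the animal. Both groups came from Eomes-GFP mice in which Foxp3, the factor of regulatory T cells, was read by a Thy1.1 reporter. Every one of these mice was given 50 µg of antibody to NK1.1 to remove natural killer cells, Vk12653 myeloma cells, a transplantable plasma cell tumour, and 20 µg of an agonist antibody to 4-1BB on days 10, 13 and 16, and spleens were taken on day 18. The sort kept Thy1.1-negative cells with CD4 and a T cell receptor and divided them by GFP. The gate held no marker of activation, so GFP- cells could include resting as well as activated helper cells. How the reporter was built is not given in the sources used here. The other 7 libraries, which share the estimate of spread, were 2 of undivided cells from Eomes-GFP mice given control IgG and 5 from mice of a genotype named Eomes-TKO, 2 after 4-1BB antibody and 3 after control IgG.

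Eomes belongs to the T-box transcription factors and is best known from CD8 T cells and natural killer cells, while only a minor share of helper cells makes it. 4-1BB, encoded by Tnfrsf9, is a costimulatory receptor that T cells gain after antigen contact, and agonist antibodies to it are known to raise cytotoxic genes in helper cells. The genes below are described by what their products do. Proteins of the cell surface receive signals and place the cell in tissue. Secreted proteins act on other cells. The class called secreted here also holds membrane-bound ligands, such as those of the TNF family, and the intracellular inhibitor Serpinb9. Transcription factors and the enzymes and transporters of metabolism form the other classes.

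Total estimated counts ran from 7514385 to 10881146 in the 6 libraries, in which 3 counts equal 0.271 to 0.416 CPM (counts relative to library size after TMM scaling). Eomes, which the reporter reads, stood at 570.3, 706 and 685 CPM in GFP+ cells, against 3.54, 1.83 and 2.26 CPM in GFP- cells. Gzmk, a granzyme that the sort did not use, stood at 337, 382 and 368 CPM in GFP+ cells, against 1.83, 1.1 and 1.26 CPM in GFP- cells. Igfbp4, which binds insulin-like growth factors, stood at 4.3, 5.37 and 5.91 CPM in GFP+ cells, against 502, 554 and 736 CPM in GFP- cells. The groups did not overlap in any of these genes, nor in 51.3% of all tested genes. Eomes is read by the gate, and Gzmk and Igfbp4 were picked as markers of this comparison, so this is no check of the sort. GFP+ replicate 2 lay somewhat apart, with a root mean square log2 distance of 0.675 and 0.658 from the other GFP+ libraries, against 0.546 between those. Among 11 markers of naive and resting T cells 10 were lower in GFP+ cells, with a summed level of 2086 to 2572 CPM in GFP+ and 6786 to 7745 CPM in GFP- libraries, and 59 of 63 mitosis genes were higher, with 3639 to 4586 CPM in GFP+ and 1655 to 1950.1 CPM in GFP- libraries. Both went with the sort, and their part in the other results was not tested. In bulk RNA, fewer cells of a type and less RNA per cell cannot be told apart. Some markers of other cells had 0 counts in all 6 libraries: Blk and Fcrla of B cells, Tnfrsf17 and Fcrl5 of plasma cells, Ncr1 of natural killer cells and Pf4 of platelets. Other markers were detected at low counts. Cd79b of B cells had 8, 0 and 9 counts in GFP+ and 4, 3 and 4 in GFP- libraries, and Adgre1 of myeloid cells had 0, 12 and 3 and 0, 6 and 0. The 2 tested B cell markers summed to 14.1 to 22.3 CPM in GFP+ and 12.7 to 16.3 CPM in GFP- libraries, with 1 lower. Igkc, an immunoglobulin light chain gene, stood at 76.1, 82 and 79.6 CPM in GFP+ cells, against 0.488, 0.487 and 0.0903 CPM in GFP- cells. The 5 tested plasma cell markers summed to 389 to 485 CPM in GFP+ and 96.8 to 105 CPM in GFP- libraries, and those higher were Igkc and, both also made by activated T cells, Slamf7 and Irf4. The 9 tested myeloid markers summed to 71.4 to 100.1 CPM in GFP+ and 31.1 to 54.3 CPM in GFP- libraries, with 2 higher, and the 7 tested markers of natural killer and innate-like cells, which hold Eomes and Il2rb, to 1554 to 2129.7 CPM in GFP+ and 206 to 274 CPM in GFP- libraries, with 3 higher and 2 lower. All 7 regulatory T cell markers were called, 3 higher and 4 lower, and summed to 685 to 795 CPM in GFP+ and 194 to 228 CPM in GFP- libraries. Most of that sum was Ikzf2 in GFP+ libraries, and Foxp3 stood at 0.554, 0.393 and 0.537 CPM in GFP+ cells, against 1.95, 1.1 and 1.26 CPM in GFP- cells, a call lost when any single library was left out. The part of these cells in the results was not tested.

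Of 14059 genes tested with edgeR's quasi-likelihood test, 5220 (37.1%) differed at a Benjamini-Hochberg adjusted p under 0.05. GFP+ cells had 2905 genes higher (20.7%) and 2315 lower (16.5%), and the median log2 fold change of all tested genes was 0.02. Upper-quartile scaling moved this median to -0.116 and the split to 2186 higher and 3095 lower genes, so lists with medians close to 0 carry no direction of their own. Of the called genes, 54.0% of the higher and 50.3% of the lower differed by under 2-fold, while 8.95% and 9.55% differed by over 8-fold. For 51.3% of the tested genes the 3 GFP+ and the 3 GFP- libraries did not overlap. Among called genes whose mean log2 CPM reached 2, the ratio of GFP+ to GFP- had the same sign in all 3 animals for 4280 of 4290. These genes were called from the same libraries, so a shared sign is largely set by the call and is no separate evidence. The undivided cells of IgG-treated mice were closer to the GFP- level for 93.5% of the higher genes and 90.9% of the lower genes. Fold changes below are log2 values of GFP+ over GFP-, and means are given with the SD over 3 libraries. Each fold change has an approximate standard error (SE), its size divided by the square root of the test's F statistic.

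The surface of the cells and their secreted products changed in a large share of expressed genes. Of 399 tested surface genes 155 were higher and 109 lower (66.2% called), and of 147 secreted genes 45 were higher and 33 lower (53.1%). Transcription factor genes were called in 42.0% of 686, with 138 higher and 150 lower, and metabolic genes in 42.2% of 864, with 213 higher and 152 lower, or 159 and 202 under upper-quartile scaling. Both shares were close to the 41.1% of protein-coding genes called, beside 37.1% over all tested genes. The filter on low counts passed 399 of 901 surface, 147 of 603 secreted, 686 of 1047 transcription factor and 864 of 1266 metabolic genes in the table, so these shares describe expressed genes. Summed RNA of the surface class was 47753 ± 2824 CPM in GFP+ cells, against 34683 ± 157 CPM in GFP- cells, and of the secreted class 7553 ± 614 CPM in GFP+ cells, against 4196 ± 248 CPM in GFP- cells. Transcription factor RNA summed to 54459.5 ± 475 CPM in GFP+ cells, against 55735 ± 1252 CPM in GFP- cells, and metabolic RNA to 64640.4 ± 1807 CPM in GFP+ cells, against 62830.2 ± 1615 CPM in GFP- cells, with overlapping libraries in both classes. A few abundant genes carried much of the surface and secreted shifts. Itga4, Itgal, Ptprc, Il2rb and Adam19 made up 36.7% of the summed surface gain, and Ccl5, Gzmk, Sema4d, Gcg and Ccl3 58.2% of the secreted gain. Igfbp4, Ltb, Tnfsf8, Cd40lg and Flt3l made up 74.5% of the secreted loss. The 5 leading genes carried less of the gain in the other classes, 25.2% for transcription factors and 23.9% for metabolic genes. This did not hold for the loss, where they carried 37.5% for transcription factors, 32.2% for metabolic genes and 31.7% for surface genes.

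**Figure D1:**
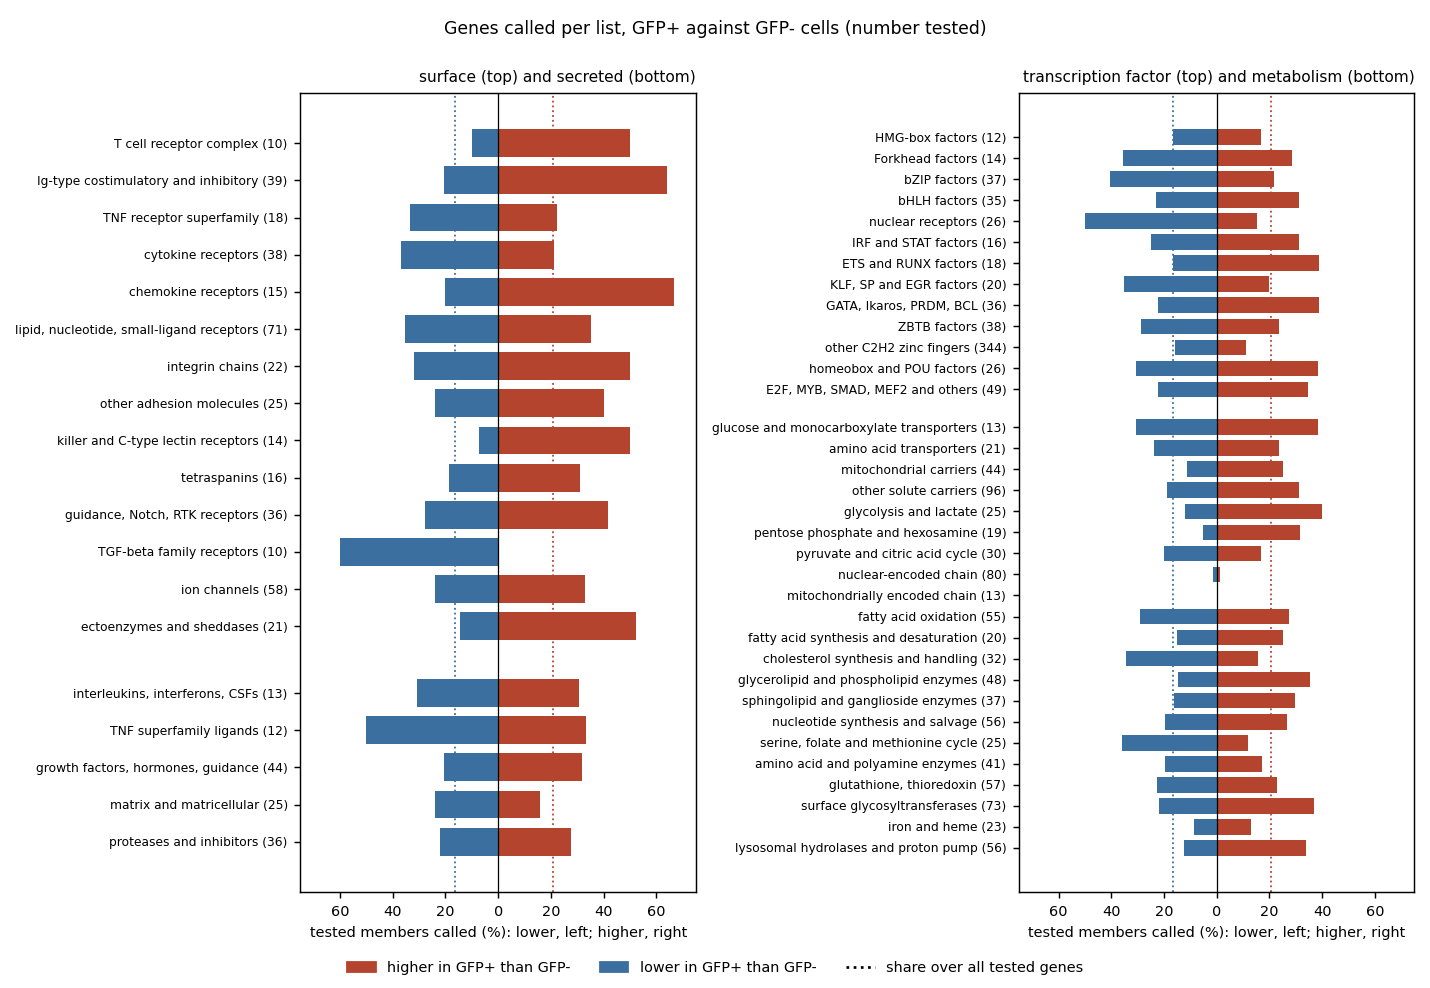
Share of the tested members of each gene list, in percent, that were higher (red, to the right) or lower (blue, to the left) in GFP+ than in GFP- cells, for lists of the surface, secreted, transcription factor and metabolic classes with at least 10 tested genes, with the number tested in brackets. Dotted lines mark the shares over all tested genes, 20.7% higher and 16.5% lower. Among these lists chemokine receptors and immunoglobulin-type receptors reach furthest right, TGF-beta family receptors lie wholly to the left, and nuclear-encoded respiratory chain genes are almost all uncalled.

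The promoters of 3 genes are shown because, of 9 genes scanned, these held the T-box core motif: Gzmk and Prf1, a granzyme and perforin, were higher in GFP+ cells, and Ifngr2, a chain of the interferon-gamma receptor, was lower. Each covers 250 bases before to 50 bases after the RefSeq start, on GRCm38.p6, read on the gene's strand, and capitals mark AGGTGT, the T-box core motif, or its reverse complement ACACCT. The Gzmk promoter lies at chr13:113180916-113181215 on the minus strand, that of Prf1 at chr10:61297586-61297885 on the plus strand and that of Ifngr2 at chr16:91546809-91547108 on the plus strand.
Gzmk: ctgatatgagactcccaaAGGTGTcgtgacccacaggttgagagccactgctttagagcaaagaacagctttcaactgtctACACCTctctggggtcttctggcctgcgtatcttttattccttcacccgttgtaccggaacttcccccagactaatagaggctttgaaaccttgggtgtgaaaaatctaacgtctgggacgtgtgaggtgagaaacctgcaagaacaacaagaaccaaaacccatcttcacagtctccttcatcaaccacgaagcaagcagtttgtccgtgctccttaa
Prf1: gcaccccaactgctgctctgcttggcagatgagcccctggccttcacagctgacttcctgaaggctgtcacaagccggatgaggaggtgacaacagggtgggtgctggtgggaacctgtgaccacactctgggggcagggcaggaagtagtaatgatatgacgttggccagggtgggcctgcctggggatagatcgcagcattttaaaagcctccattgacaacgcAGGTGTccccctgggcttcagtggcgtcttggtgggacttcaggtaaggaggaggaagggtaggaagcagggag
Ifngr2: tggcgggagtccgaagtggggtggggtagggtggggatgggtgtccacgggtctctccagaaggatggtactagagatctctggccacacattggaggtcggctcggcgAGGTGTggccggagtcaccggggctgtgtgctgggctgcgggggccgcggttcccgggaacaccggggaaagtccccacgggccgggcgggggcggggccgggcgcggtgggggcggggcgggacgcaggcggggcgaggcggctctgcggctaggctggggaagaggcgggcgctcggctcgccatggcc
Gzmk held the core at 232 bases before the start on the gene's strand and at 169 bases before it on the other strand. Prf1 held it 24 bases before the start and Ifngr2 141 bases before it. The windows of Eomes, Igfbp4, Gzmb, Il7r and Slamf6 and both windows of Tcf7 held no match. Of 14049 tested gene symbols 9428 had a promoter in the table. The core occurred in 11.2% of promoters of higher genes, 11.5% of those of lower genes, 10.3% of those of uncalled genes and 13.7% of all 32851 promoters. The letters ATCAAAG of TCF/LEF factors, searched on both strands, occurred in 2.76% of promoters of higher genes, 3.12% of lower, 2.25% of uncalled and 3.73% of all. A match is a description of letters and not a bound site.

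RNA of the antigen receptor complex was slightly more abundant in GFP+ cells. Of 10 tested genes of the T cell receptor complex and its coreceptors 5 were higher, none of them by over 2-fold, and 1 was lower. The median log2 fold change was 0.49. Cd3e, a signalling chain of the receptor, stood at 1128, 1487 and 1152 CPM in GFP+ cells, against 726, 753 and 684 CPM in GFP- cells, a log2 fold change of 0.80 ± 0.12 (adjusted p = 0.000118). Cd4 averaged 1200.0 ± 129.6 CPM in GFP+ cells, against 846 ± 29.3 CPM in GFP- cells (0.50 ± 0.12), and Ptprc, the phosphatase CD45, averaged 3648 ± 352 CPM in GFP+ cells, against 2609 ± 169 CPM in GFP- cells (0.48 ± 0.10). The lower gene was Cd8b1, a chain of the CD8 coreceptor, at 1.11, 3.93 and 5.59 CPM in GFP+ cells, against 7.32, 9.87 and 5.96 CPM in GFP- cells (-1.09 ± 0.40, adjusted p = 0.0445), a call lost when any of 4 single libraries was left out and when the 6 libraries were fitted alone, with or without the animal as a block.

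Immunoglobulin-type receptors, which adjust the strength of T cell activation, rose broadly. Of 39 tested, 25 were higher and 8 lower in GFP+ cells. The inhibitory receptor genes Pdcd1, Lag3 and Tigit had log2 fold changes of 3.82 ± 0.27, 4.84 ± 0.64 and 5.09 ± 0.54, and Slamf7, a receptor of cytotoxic cells, had 4.72 ± 0.24. Cd28 and Icos, which give activating signals, were higher by under 2-fold. Cd28 stood at 695, 748 and 714 CPM in GFP+ cells, against 439.7, 369.9 and 403 CPM in GFP- cells, and Icos had a log2 fold change of 0.60 ± 0.15 (adjusted p = 0.00541). Slamf6, which marks progenitor-like T cells, stood at 399.6, 341 and 372 CPM in GFP+ cells, against 284, 223 and 223 CPM in GFP- cells, with no overlap and a log2 fold change of 0.61 ± 0.14 (adjusted p = 0.00408). The reverse held for Treml2, a receptor of the TREM family, at 10.5, 12.4 and 8.92 CPM in GFP+ cells, against 159.8, 185 and 177 CPM in GFP- cells, and for Pecam1, a homophilic adhesion receptor, with -1.44 ± 0.13. Among 18 tested TNF receptor genes 4 were higher and 6 lower. The higher share, 22.2%, was close to the 20.7% over all genes, and the lower share was 33.3%, beside 16.5%. Tnfrsf1b, which encodes TNF receptor 2, had a log2 fold change of 1.94 ± 0.18 and Tnfrsf9, the 4-1BB receptor, of 2.64 ± 0.26. Tnfrsf25, death receptor 3, was lower at -1.45 ± 0.19.

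Cytokine receptor genes went both ways, at times within 1 receptor. Of 38 tested, 8 were higher and 14 lower in GFP+ cells, with a median log2 fold change of -0.05. The IL-2 and IL-15 receptor chain Il2rb stood at 945, 1396 and 933 CPM in GFP+ cells, against 207, 238 and 185 CPM in GFP- cells, a log2 fold change of 2.38 ± 0.22 (adjusted p = 3.36e-06). Il2ra, the high-affinity chain for IL-2, was lower at 3.46, 4.32 and 2.36 CPM in GFP+ cells, against 14.1, 14.9 and 5.78 CPM in GFP- cells, and Il2rg, the chain they share, did not pass (-0.23 ± 0.12, adjusted p = 0.141; it passed at -0.28 when the 6 libraries were fitted alone, with or without the animal as a block, and at -0.37 under upper-quartile scaling). Il10ra, which binds IL-10, stood at 451, 486 and 452 CPM in GFP+ cells, against 21, 24.4 and 33.3 CPM in GFP- cells, and the GFP+ libraries lay close together and far above the GFP- libraries. Both chains of the IL-6 receptor were lower. Il6ra, the binding chain, stood at 47.1, 37.6 and 55.3 CPM in GFP+ cells, against 503, 459.6 and 532 CPM in GFP- cells (-3.41 ± 0.14), and Il6st, the signalling chain gp130, at 165, 179 and 162 CPM in GFP+ cells, against 508, 426 and 424 CPM in GFP- cells (-1.42 ± 0.11). Il7r, the receptor chain for the survival cytokine IL-7, stood at 50.7, 25.1 and 66.9 CPM in GFP+ cells, against 465, 411 and 466 CPM in GFP- cells and was lowest in GFP+ replicate 2.

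Receptors for other inflammatory cytokines were also among the lower genes. Il18r1, a chain of the IL-18 receptor, stood at 25.4, 16.4 and 23.2 CPM in GFP+ cells, against 116, 131 and 109 CPM in GFP- cells, and the levels did not overlap (-2.46 ± 0.14, adjusted p = 8.29e-09). Il9r, the IL-9 receptor chain, was at 0, 0.393 and 0.322 CPM in GFP+ cells, against 10.5, 14.4 and 13.5 CPM in GFP- cells, and the GFP+ libraries held at most 3 counts each. The receptor of interferon-gamma showed its chains moving in opposite directions. Ifngr1, which binds the cytokine, averaged 170.4 ± 22 CPM in GFP+ cells, against 101 ± 1.59 CPM in GFP- cells (0.76 ± 0.12, adjusted p = 0.000142), whereas Ifngr2, which is needed for signalling, stood at 1.66, 4.32 and 2.79 CPM in GFP+ cells, against 50, 50.6 and 46.9 CPM in GFP- cells (-4.06 ± 0.21, adjusted p = 3.33e-09). For Ifngr2 all GFP+ libraries lay under 5 CPM and all GFP- libraries at 46.9 to 50.6 CPM.

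**Figure D2:**
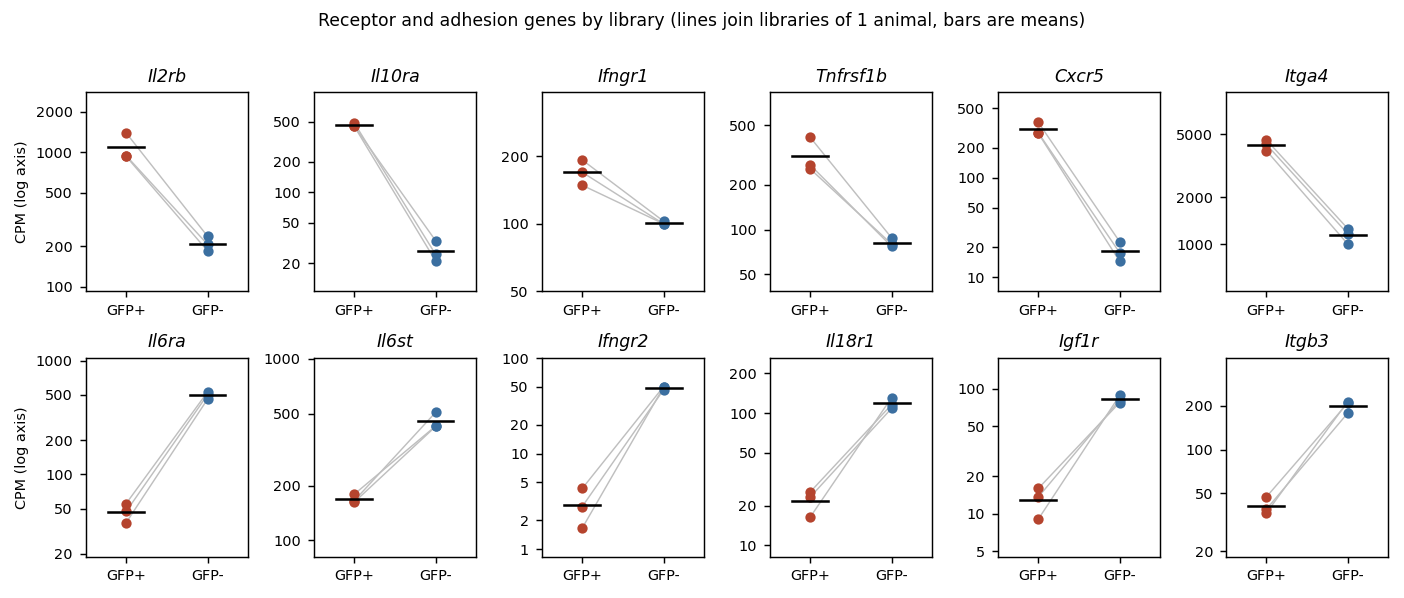
Level in CPM (log axis, different range in each panel) of 12 receptor and adhesion genes in each library, GFP+ left and GFP- right, with lines joining libraries of 1 animal and bars at the means. In every panel all 3 lines run the same way and the groups do not overlap. Several of these genes were chosen by a rule that requires no overlap, which held for 51.3% of all tested genes.

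TGF-beta family receptors, which receive signals that restrain T cells or direct them to tissue, had no member higher. Of 10 tested 6 were lower, with a median log2 fold change of -1.59. Tgfbr3, a coreceptor, stood at 26.9, 49.1 and 48.6 CPM in GFP+ cells, against 176, 193 and 223 CPM in GFP- cells (-2.24 ± 0.18), and Acvr1b, an activin receptor, at 8.73, 6.02 and 7.09 CPM in GFP+ cells, against 63.3, 62.7 and 61.8 CPM in GFP- cells (-3.11 ± 0.15). The main signalling chains moved little: Tgfbr1 was lower by a log2 fold change of -0.43 ± 0.12 (adjusted p = 0.0112), and Tgfbr2 did not pass, with -0.12 ± 0.09 (adjusted p = 0.31; it passed at -0.26 under upper-quartile scaling).

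Chemokine receptors, which steer cells along chemokine gradients, were mostly higher: 10 of 15 tested rose and 3 fell in GFP+ cells. Cxcr5, the receptor of follicular helper cells, stood at 282, 358 and 279 CPM in GFP+ cells, against 17.6, 22.7 and 14.4 CPM in GFP- cells (4.08 ± 0.30). Cxcr3 and Cxcr6, receptors of effector cells, had log2 fold changes of 1.43 ± 0.31 and 1.87 ± 0.30. Ccr7, which brings cells into lymph nodes, fell to 34.1 ± 1.11 CPM in GFP+ cells, against 294 ± 21 CPM in GFP- cells (-3.11 ± 0.10, adjusted p = 7.1e-11). S1pr1, needed for exit from lymphoid organs, was lower by a smaller step (-0.51 ± 0.10, adjusted p = 0.00108).

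Integrin chains, which bind matrix and vessel wall ligands in pairs of an alpha and a beta chain, were higher in 11 and lower in 7 of 22 tested genes. Itga4, the alpha-4 chain, had the largest gain in CPM of any surface gene and stood at 4621, 3948 and 4322 CPM in GFP+ cells, against 1260.5, 1005 and 1170.1 CPM in GFP- cells (1.91 ± 0.11, adjusted p = 1.01e-08). Itgal, the alpha chain of LFA-1, stood at 1805, 2377 and 1789 CPM in GFP+ cells, against 806, 848 and 777 CPM in GFP- cells (1.30 ± 0.13). Of the beta chains that pair with alpha-4, Itgb7 was lower at 281, 413 and 335 CPM in GFP+ cells, against 505, 582 and 637 CPM in GFP- cells (-0.74 ± 0.14, adjusted p = 0.000955) and Itgb1 did not pass, at 346, 442 and 610.3 CPM in GFP+ cells, against 549.6, 554 and 542 CPM in GFP- cells (adjusted p = 0.563). Itgb3, known from platelets and from the vitronectin receptor, fell to 40.9 ± 5.6 CPM in GFP+ cells, against 201 ± 19.4 CPM in GFP- cells (-2.30 ± 0.12). Itgad was at 29.2, 22.6 and 25.5 CPM in GFP+ cells, against 0.244, 0.122 and 0.181 CPM in GFP- cells, and no GFP- library held more than 2 counts. Cd44, a hyaluronan receptor of antigen-experienced cells, was higher by a log2 fold change of 0.70 ± 0.16 (adjusted p = 0.00356), and Spn, the sialoglycoprotein CD43, by 1.11 ± 0.10.

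Receptors of growth factors and of small ligands went both ways. In the list of guidance, Notch and tyrosine kinase receptors 15 of 36 were higher and 10 lower, and in that of receptors for lipids, nucleotides and other small ligands 25 of 71 were higher and 25 lower. Igf1r, the receptor for insulin-like growth factor 1, stood at 13.6, 9.03 and 15.9 CPM in GFP+ cells, against 81.1, 88.3 and 77.5 CPM in GFP- cells (-2.67 ± 0.16), and Insr, the insulin receptor, at 45.6, 37.8 and 38.9 CPM in GFP+ cells, against 122, 104 and 102 CPM in GFP- cells (-1.42 ± 0.16). Igf2r, which carries enzymes to lysosomes and binds insulin-like growth factor 2, was higher at 359.6, 489 and 405 CPM in GFP+ cells, against 144, 173 and 182 CPM in GFP- cells (1.33 ± 0.12). Sorl1, a sorting receptor, had a log2 fold change of 1.64 ± 0.10. Ret, a receptor tyrosine kinase of neurons, was at 60.4, 83.7 and 71.5 CPM in GFP+ cells, against 0.122, 0.122 and 0.361 CPM in GFP- cells, so that the GFP- libraries held at most 4 counts. F2r, the thrombin receptor, rose (2.43 ± 0.29), while Vipr1, a receptor for vasoactive intestinal peptide, fell (-2.26 ± 0.12), as did P2rx7, a channel opened by extracellular ATP (-2.07 ± 0.21).

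Ectoenzymes and sheddases, which cut molecules at the cell surface, had 11 of 21 members higher and 3 lower. Adam19, a sheddase, stood at 758, 1049 and 858 CPM in GFP+ cells, against 95.1, 92.4 and 94 CPM in GFP- cells (3.24 ± 0.20, adjusted p = 6.62e-08). The enzymes that turn extracellular ATP into adenosine in sequence moved apart: Entpd1 (CD39), the first step, stood at 141, 173 and 137 CPM in GFP+ cells, against 4.88, 5.12 and 4.88 CPM in GFP- cells (4.92 ± 0.23), and Nt5e (CD73), the last, at 18.6, 17.2 and 26.4 CPM in GFP+ cells, against 54.9, 62.4 and 60.4 CPM in GFP- cells (-1.51 ± 0.18). Enpp6, a choline phosphodiesterase, was at 29.1, 31.3 and 27.5 CPM in GFP+ cells, against 0, 0 and 0.0903 CPM in GFP- cells, a single count over all GFP- libraries.

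In the whole secreted class, 40% of the genes called higher differed by over 8-fold, beside 8.95% of all higher genes. Of the secreted genes called lower, 15.2% did, beside 9.55% of all lower genes. Chemokines had 4 of 7 tested members higher and none lower, and 5 of 7 cytolytic granule genes were higher, beside 20.7% higher and 16.5% lower over all genes. The filter on low counts passed only 7 of 41 chemokine and 7 of 13 granule genes in the table. A gene near 0 in GFP- cells, such as Ccl3, can pass it through its GFP+ level, so these counts only describe the genes that passed. Ccl5 averaged 1639.6 ± 195 CPM in GFP+ cells, against 17.7 ± 5.86 CPM in GFP- cells (6.54 ± 0.68). Ccl3 stood at 165, 304 and 125 CPM in GFP+ cells, against 0.366, 0.609 and 0.632 CPM in GFP- cells, where reads may be shared with the similar Ccl4. Gzmb, a granzyme, stood at 190.4, 139 and 107 CPM in GFP+ cells, against 3.41, 5.36 and 2.17 CPM in GFP- cells (5.35 ± 0.43), and Prf1, the pore former, at 220.2, 223 and 207 CPM in GFP+ cells, against 30.1, 37.4 and 34.9 CPM in GFP- cells (2.67 ± 0.15). Gzma, another granzyme, was low in both groups, at 9.15, 7.33 and 6.66 CPM in GFP+ cells, against 2.2, 2.44 and 1.9 CPM in GFP- cells, and did not pass (1.82 ± 0.70, adjusted p = 0.0598), though it passed at 1.77 to 1.82 with DESeq2, with voom, without the filter on low counts and when the 6 libraries were fitted alone, with or without the animal as a block. Cst7, an inhibitor of granule proteases, was higher (3.42 ± 0.32), as was Serpinb9, which blocks granzyme B (2.25 ± 0.20).

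Cytokine genes moved in both directions. Of 13 tested interleukin, interferon and colony-stimulating factor genes 4 were higher and 4 lower. That is 30.8% each, beside 20.7% higher and 16.5% lower over all genes. Among the lower were Flt3l (-0.86 ± 0.13) and Clcf1 (-0.54 ± 0.16). Ifng, the interferon of type 1 helper cells, stood at 94.4, 142 and 96.9 CPM in GFP+ cells, against 12.7, 20.6 and 17.9 CPM in GFP- cells (2.7 ± 0.23, adjusted p = 5.98e-07), and Il10, a restraining cytokine, was at 19.5, 32.3 and 19.8 CPM in GFP+ cells, against 0.122, 0.366 and 0.271 CPM in GFP- cells. The TNF family had 4 of 12 ligands higher and 6 lower. Fasl, which triggers cell death, stood at 119, 109 and 117 CPM in GFP+ cells, against 15.2, 10.6 and 15.6 CPM in GFP- cells (3.05 ± 0.21), and Tnfsf10, the ligand TRAIL, was higher by 0.96 ± 0.17. Cd40lg, the ligand by which helper cells license B cells and dendritic cells, was lower at 12.2, 11.4 and 9.78 CPM in GFP+ cells, against 56.2, 71.5 and 74.9 CPM in GFP- cells (-2.61 ± 0.14). Tnfsf8, the CD30 ligand, stood at 15.5, 13.4 and 18.3 CPM in GFP+ cells, against 84.3, 101 and 95.6 CPM in GFP- cells (-2.57 ± 0.15), Ltb, which builds lymphoid tissue, had -0.95 ± 0.14, and Tnf itself -1.05 ± 0.16. In each of these 4 ligands the groups did not overlap, which also held for 51.3% of all tested genes. Ltb and Tnfsf8 were among the genes chosen by a rule that requires it. Il16 and Tgfb1, made by many T cells, did not pass and had log2 fold changes of -0.01 ± 0.09 and -0.01 ± 0.12. Gcg, the glucagon gene, was at 198, 312 and 128 CPM in GFP+ cells, against 0.244, 0.487 and 0.361 CPM in GFP- cells, with 2 to 4 counts in each GFP- library. Matrix and matricellular genes fell in 6 and rose in 4 of 25, a called share close to the 37.1% over all genes. Within this list Igfbp4 had a log2 fold change of -6.83 ± 0.18 (adjusted p = 1.35e-11).

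Transcription factor genes were called in both directions, 138 higher and 150 lower, or 104 higher and 209 lower under upper-quartile scaling. Nuclear receptors, which respond to hormones and lipids, had 4 of 26 higher and 13 lower, and bZIP factors, which include AP-1, had 8 of 37 higher and 15 lower. NF-kB and NFAT factors had 4 of 9 higher and none lower, against 2 higher under upper-quartile scaling and 2 lower without GFP+ replicate 2. Their called share was 44.4%, beside 37.1% over all genes. The large group of other C2H2 zinc finger genes was called in 26.7% of 344, 38 higher and 54 lower, and upper-quartile scaling gave 23 and 88. Its higher count was 25 without GFP- replicate 2 or without GFP+ replicate 3.

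T-box, HMG-box and Ikaros factors define lymphocyte states. Tbx21, encoding T-bet, the relative of Eomes, stood at 40.9, 17.3 and 27.7 CPM in GFP+ cells, against 27, 24.6 and 19.1 CPM in GFP- cells and did not pass (0.28 ± 0.32, adjusted p = 0.53). Tox, a factor of persistently stimulated T cells, stood at 642, 653 and 593 CPM in GFP+ cells, against 129, 119.9 and 102 CPM in GFP- cells (2.43 ± 0.10). Tcf7, which keeps naive and progenitor T cells, stood at 655, 379 and 696 CPM in GFP+ cells, against 1655, 1418 and 1442 CPM in GFP- cells (-1.38 ± 0.20, adjusted p = 0.000137), and its partner Lef1 at 402, 272 and 321 CPM in GFP+ cells, against 1110.2, 806 and 829 CPM in GFP- cells (-1.46 ± 0.15). All 3 GFP+ libraries were below the GFP- libraries for both genes, with GFP+ replicate 2 lowest. Ikaros members differed among themselves: Ikzf2 (Helios) had 3.05 ± 0.24, Ikzf3 (Aiolos) 1.79 ± 0.11, Ikzf4 (Eos) -0.92 ± 0.14, and Ikzf1 did not pass (0.11 ± 0.09, adjusted p = 0.371). Satb1, a chromatin organizer of resting T cells, fell to 114 ± 32.1 CPM in GFP+ cells, against 1172 ± 166 CPM in GFP- cells (-3.36 ± 0.19, adjusted p = 1.04e-08).

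Several factors of effector differentiation were higher. Prdm1, encoding Blimp-1, stood at 128, 180.4 and 119 CPM in GFP+ cells, against 12.2, 13.3 and 12.2 CPM in GFP- cells (3.50 ± 0.19), Runx3, which supports cytotoxic genes, at 466, 472 and 475 CPM in GFP+ cells, against 142, 145 and 123 CPM in GFP- cells (1.79 ± 0.12), and Maf, which supports Il10, at 400.0, 415 and 481 CPM in GFP+ cells, against 66.5, 101 and 61.6 CPM in GFP- cells (2.50 ± 0.27). Bhlhe40, a regulator of cytokine output, had a log2 fold change of 2.26 ± 0.30, Irf8 2.28 ± 0.20, Irf4 1.55 ± 0.28 and Nfatc1, which relays calcium signals, 1.02 ± 0.10. Myb, a factor of stem and progenitor cells, stood at 201, 155 and 217 CPM in GFP+ cells, against 38.5, 32.5 and 31.1 CPM in GFP- cells (2.49 ± 0.13), with no overlap. Stat4, which relays IL-12, was higher (0.68 ± 0.12).

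Several factors of quiescence and of immediate response were lower. Foxo1 and Foxp1, which hold T cells at rest, had log2 fold changes of -1.0 ± 0.09 and -1.32 ± 0.12, and Bach2, which restrains effector genes, had -1.75 ± 0.16. Klf2, another factor of resting cells, did not pass and stood at 276, 306 and 345 CPM in GFP+ cells, against 306, 312 and 330.5 CPM in GFP- cells. The AP-1 members Junb, Jun and Fos had -1.73 ± 0.17, -1.78 ± 0.17 and -1.27 ± 0.14, while Batf, another AP-1 member, was higher at 1.57 ± 0.25. Of the orphan receptors induced by antigen, Nr4a1 and Nr4a3 were lower (-1.21 ± 0.10 and -0.87 ± 0.11) and Nr4a2 was higher at 124, 165 and 157 CPM in GFP+ cells, against 16.5, 15.1 and 17.1 CPM in GFP- cells (3.19 ± 0.15). Myc, a driver of growth, stood at 21.8, 23.2 and 26.1 CPM in GFP+ cells, against 78.7, 89.9 and 98 CPM in GFP- cells (-1.91 ± 0.23, adjusted p = 3.16e-05). Smad7, an inhibitor of TGF-beta signalling, was lower (-1.12 ± 0.11), and Smad3, a carrier of that signal, was higher (0.57 ± 0.12). Gata3, of type 2 helper cells, was lower (-0.67 ± 0.11), and Bcl6, of follicular helper cells, did not pass (0.14 ± 0.17, adjusted p = 0.572).

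**Figure D3:**
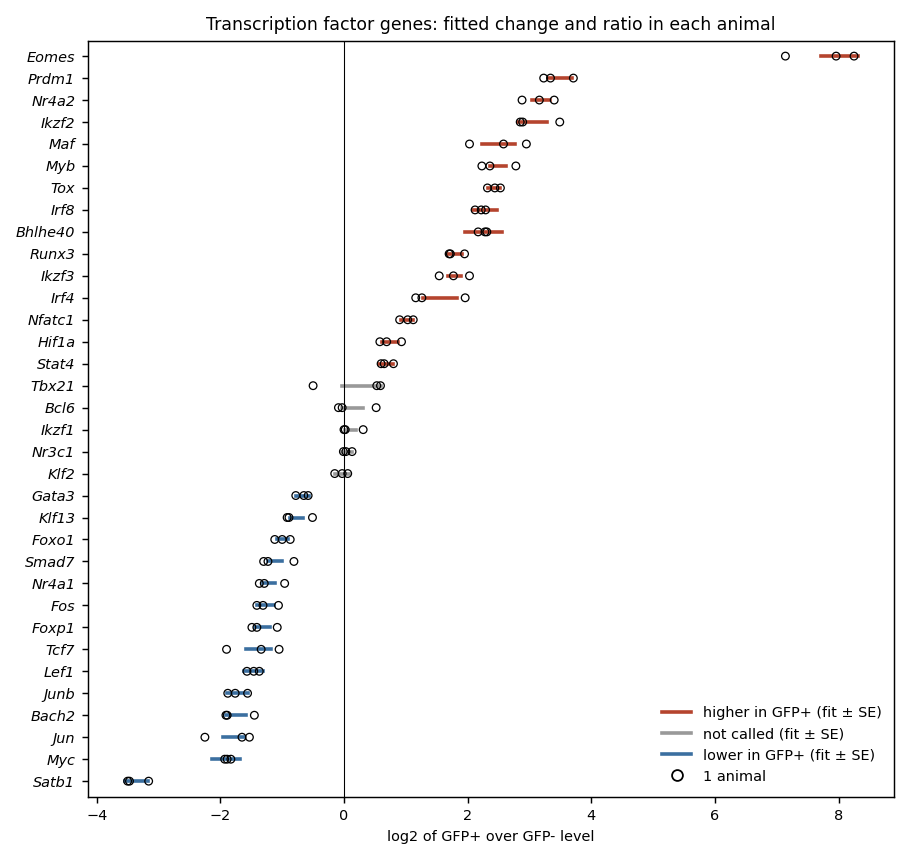
Log2 of the GFP+ over GFP- level for 34 transcription factor genes, with the fitted value ± SE as a coloured line and each animal's ratio as an open circle. Called genes above 0 are red, called genes below 0 blue and uncalled genes grey. Eomes, whose reporter the sort used, lies furthest right and Satb1 furthest left. The uncalled genes Tbx21 and Klf2 each have animals on both sides of 0.

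Central carbon metabolism changed at some steps and not as a whole. Glycolysis genes were higher in 10 of 25 and lower in 3, and the counts were 5 and 5 under upper-quartile scaling, with 6 higher when any GFP- replicate or GFP+ replicate 2 was left out. Gapdh, a glycolytic enzyme, stood at 1039, 1465 and 952 CPM in GFP+ cells, against 596, 657 and 578 CPM in GFP- cells (0.92 ± 0.18, adjusted p = 0.00127), and was highest in GFP+ replicate 2. Ldha, which makes lactate, did not pass (0.25 ± 0.17, adjusted p = 0.273). Pdk1, a kinase that keeps pyruvate out of mitochondria, stood at 64.2, 54.9 and 56.3 CPM in GFP+ cells, against 340.2, 278 and 310.3 CPM in GFP- cells (-2.40 ± 0.11, adjusted p = 1.51e-09). Idh2, a mitochondrial isocitrate dehydrogenase, was lower (-1.52 ± 0.14), and Idh3a, a subunit of the enzyme of the cycle, higher (0.80 ± 0.13). Slc2a3, a glucose transporter, was higher (0.93 ± 0.16), and Slc16a5, a monocarboxylate transporter family member, was lower at 5.13, 3.8 and 4.19 CPM in GFP+ cells, against 54.3, 47.2 and 55.7 CPM in GFP- cells (-3.58 ± 0.14).

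Nuclear-encoded respiratory chain RNA differed little. Among 80 tested nuclear-encoded subunits and assembly genes 1 was higher, 1 was lower and 78 did not pass, a call share of 2.5% against 37.1% over all genes, and the median log2 fold change was 0.04 (-0.09 under upper-quartile scaling). Over the alternatives run, 0 to 5 were higher and 0 to 3 lower. The 2 genes called were Cox7a2l (-0.68 ± 0.16) and Cox8a (0.75 ± 0.21), and the call of Cox8a was lost without GFP- replicate 1 (0.67) or GFP+ replicate 2 (0.51). None of the 13 mitochondrially encoded genes passed, and 8 of them were called lower and 1 higher when the filter on low counts was left out. Their summed RNA was 14130.4, 8845 and 15955 CPM in GFP+ cells, against 18455, 17423 and 13537 CPM in GFP- cells, and the animals did not agree in direction: it was lower in GFP+ cells of animals 1 and 2 and higher in animal 3. The median log2 ratio of the 13 genes was -0.49, -2.61 and 0.87 in animals 1, 2 and 3.

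Lipid genes differed in both directions. The lists named here had median log2 fold changes of 0.29 (glycerolipid), 0.06 (fatty acid oxidation) and -0.21 (cholesterol). Lpin1, a phosphatidate phosphatase on the way to triglycerides and phospholipids, stood at 464, 473 and 481 CPM in GFP+ cells, against 67.9, 60.7 and 59 CPM in GFP- cells (2.92 ± 0.10, adjusted p = 7.1e-11). The glycerolipid list had 17 of 48 higher and 7 lower, and the higher count was 10 without GFP+ replicate 2 and 11 without GFP- replicate 1. The lower count was 12 under upper-quartile scaling, which also gave 12 higher, and 11 with the animal as a block. Fatty acid oxidation genes were higher in 15 of 55 and lower in 16, and the higher count was 9 without GFP+ replicate 2. Acadl, an acyl-CoA dehydrogenase, was higher (1.08 ± 0.12) and Cpt1a, the carnitine entry step, did not pass (0.49 ± 0.19, adjusted p = 0.0574; it passed at 0.45 to 0.5 with DESeq2, with voom, without the filter and when the 6 libraries were fitted alone, with or without the animal as a block, and at 0.65 without GFP- replicate 1 and 0.57 without GFP+ replicate 3). Cholesterol genes were lower in 11 of 32 and higher in 5, the lower count was 7 without GFP- replicate 3, and the higher count was 3 without GFP- replicate 1 or without GFP+ replicate 2. Sqle, a synthesis enzyme, was lower (-0.74 ± 0.18), and Npc1, which exports cholesterol from lysosomes, was higher (0.69 ± 0.10).

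Enzymes that build surface glycans were higher in 27 and lower in 16 of 73 tested genes. St6gal1, which adds sialic acid to glycoproteins, stood at 28.4, 36.7 and 36 CPM in GFP+ cells, against 226, 206 and 236 CPM in GFP- cells (-2.72 ± 0.11, adjusted p = 3.83e-10). St8sia1, which makes the ganglioside GD3, stood at 39.6, 35.7 and 38.5 CPM in GFP+ cells, against 297, 251 and 291 CPM in GFP- cells (-2.88 ± 0.11, adjusted p = 2.37e-10). Chst11, a chondroitin sulfotransferase, rose to 119 ± 33.4 CPM in GFP+ cells, against 4.25 ± 0.657 CPM in GFP- cells (4.81 ± 0.28), and Galnt2, which starts O-linked glycans, to 282 ± 61.9 CPM in GFP+ cells, against 105 ± 6.08 CPM in GFP- cells (1.42 ± 0.13). In these 4 genes the ranges of the groups were far apart. Lysosomal genes were higher in 19 of 56 and lower in 7 (46.4% called, beside 37.1% over all genes and 41.1% of protein-coding genes). Ctsd and Ctsb, lysosomal proteases, had log2 fold changes of 1.77 ± 0.14 and 1.27 ± 0.21, and Ctss, another cathepsin, -0.52 ± 0.13.

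Nucleotide genes went both ways. Nucleotide synthesis and salvage had 15 of 56 higher and 11 lower, or 20 lower under upper-quartile scaling. This called share, 46.4%, was near the 41.1% of protein-coding genes. Rrm2, which makes deoxynucleotides, was higher (1.53 ± 0.26), and Impdh2 and Atic, of purine synthesis, were lower (-0.75 ± 0.14 and -0.73 ± 0.12). Xdh, which degrades purines, stood at 181, 137 and 99.6 CPM in GFP+ cells, against 34.8, 26.4 and 34.1 CPM in GFP- cells (2.13 ± 0.19, adjusted p = 8.04e-07). The serine, folate and methionine cycle had 9 of 25 lower and 3 higher (48% called), or 1 higher without GFP+ replicate 2. Named among them were Mthfd1 (-0.82 ± 0.13) in folate exchange and Ahcy (0.76 ± 0.16) in the methionine cycle. Amino acid and polyamine enzymes were higher in 7 and lower in 8 of 41, a share of 36.6% beside 37.1% over all genes, and the lower count was 5 without GFP- replicate 1. Glutathione, thioredoxin and antioxidant genes were higher in 13 and lower in 13 of 57 (45.6% called, near the 41.1% of protein-coding genes). Txnip, an inhibitor of thioredoxin and of glucose uptake, stood at 298, 333 and 369 CPM in GFP+ cells, against 623, 635 and 769.6 CPM in GFP- cells (-1.02 ± 0.11), and Selenop, a secreted selenium carrier, at 87.3, 61.1 and 74.8 CPM in GFP+ cells, against 279, 271 and 302 CPM in GFP- cells (-1.93 ± 0.14). Glrx, a glutaredoxin, was higher (1.77 ± 0.23).

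Ribosomal genes were lower and cell division genes higher in GFP+ cells. Of 86 cytosolic ribosomal protein genes none was higher and 52 were lower, with a median log2 fold change of -0.85, and 80 were lower without the filter on low counts. Their summed RNA was 30502, 27345 and 31898 CPM in GFP+ cells, against 50539, 58946 and 50942 CPM in GFP- cells, with no overlap. Ribosome biogenesis genes, which process ribosomal RNA, fell in 39 of 53 and rose in none (median -0.62). Rpl12, a protein of the large ribosomal subunit, stood at 660.2, 539 and 683 CPM in GFP+ cells, against 1460.4, 1576 and 1451 CPM in GFP- cells (-1.25 ± 0.19, adjusted p = 0.000158). DNA replication genes were higher in 31 of 47 and lower in 1. Their summed RNA was 2376, 2722 and 2176 CPM in GFP+ cells, against 1483, 1484 and 1474 CPM in GFP- cells, and that of mitosis and spindle genes 4484, 4586 and 3639 CPM in GFP+ cells, against 1950.1, 1837 and 1655 CPM in GFP- cells. Top2a, which untangles chromosomes, stood at 325, 365 and 265 CPM in GFP+ cells, against 104, 109.9 and 100.3 CPM in GFP- cells (1.60 ± 0.24), and Mcm6, of the replication helicase, at 247, 305 and 247 CPM in GFP+ cells, against 79.6, 90.4 and 86.1 CPM in GFP- cells (1.64 ± 0.15). Long non-coding genes were called in 24% of 1891 and protein-coding genes in 41.1% of 11216, and the host genes Gas5 and Snhg1 of small nucleolar RNAs had log2 fold changes of -0.71 ± 0.22 and -1.03 ± 0.12.

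**Figure D4:**
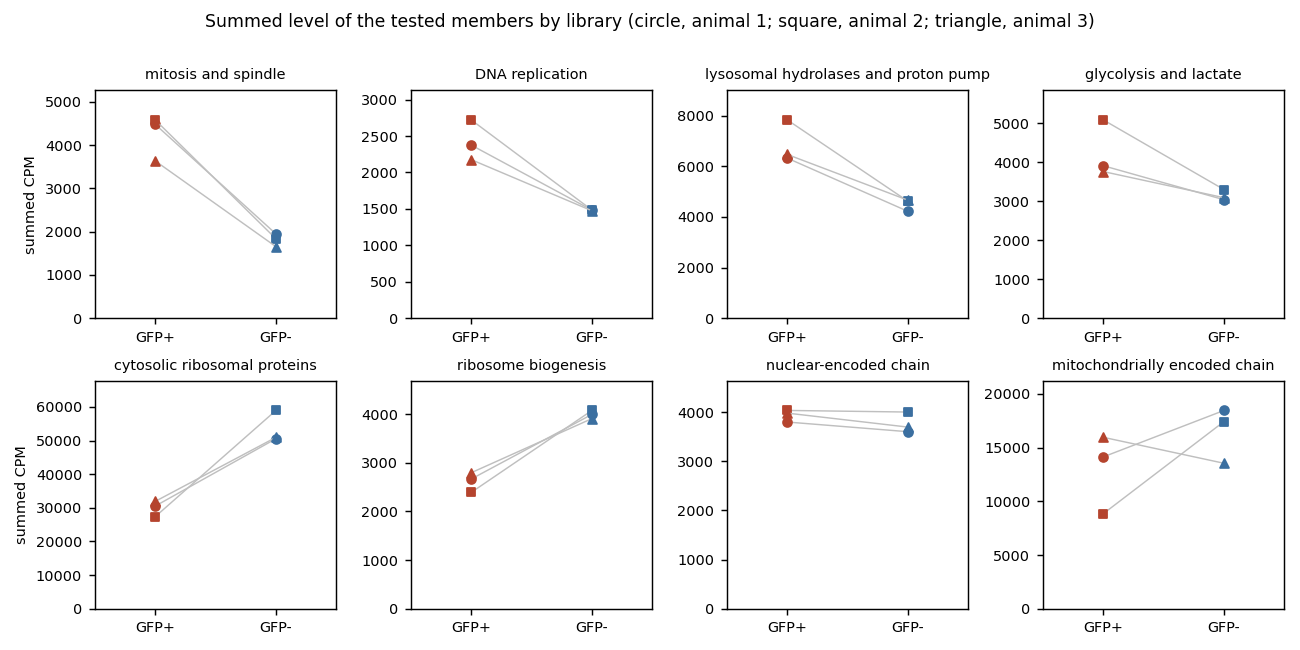
Summed CPM of the tested members of 8 gene lists in each library, GFP+ left and GFP- right, on axes that start at 0, with 1 marker shape per animal and lines joining libraries of the same animal. GFP+ points lie above all GFP- points in the mitosis, replication, lysosomal and glycolysis panels and below them in the ribosomal and ribosome biogenesis panels, and the lines cross in the mitochondrially encoded panel.

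The undivided cells of IgG-treated Eomes-GFP mice lay on the GFP- side in every class. They were nearer to GFP- for 92.9% of the higher and 98.2% of the lower surface genes, and for 95.6% and 90.9% of the secreted genes. In metabolic genes the shares were 89.7% and 96.7%, and in transcription factor genes 85.5% and 87.3%. Il6ra averaged 46.7 CPM in GFP+, 498 CPM in GFP- and 512 CPM in the undivided cells, Il10ra 463 CPM in GFP+, 26.2 CPM in GFP- and 31.4 CPM in the undivided cells and Lpin1 473 CPM in GFP+, 62.5 CPM in GFP- and 60.3 CPM in the undivided cells. Some lower transcription factor genes lay nearer to GFP+ in the undivided cells: Nr4a1 averaged 75.1 CPM in GFP+, 173 CPM in GFP- and 95.5 CPM in the undivided cells and Junb 598 CPM in GFP+, 1981 CPM in GFP- and 990.4 CPM in the undivided cells. These 2 libraries also differ from the sorted cells in antibody, so that the level in undivided treated cells is not known from them.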

How the data were processed

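RNA was measured by sequencing of total RNA, depleted of ribosomal RNA, in 13 libraries, of which the 6 GFP+ and GFP- libraries are described. Estimated counts per gene were deposited by the authors as 1 table. The submitters' processing notes name the build GRCm39, Salmon 1.5.2, STAR 2.7.10a, Trim Galore 0.6.7 and cutadapt 3.4. The table's other 34 library columns were not used here. Counts were rounded for testing, since 6.25% to 7.33% of a library's values had decimals. A library held 6080975 to 10881146 estimated counts, and floors in CPM cover counting error only.

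The test was that of edgeR 4.0.16, run in R 4.3.3 (TMM, filterByExpr, robust two-sided quasi-likelihood test, Benjamini-Hochberg adjustment over 14059 genes, threshold 0.05). All 13 libraries entered 1 model of 5 group means with 8 residual degrees of freedom, the source of all adjusted p-values of genes. Per-animal ratios add 0.5 CPM to both levels. GFP+ and GFP- libraries that share a library prefix in the labels were read as 1 animal. Deviations from the group means correlated at 0.32, 0.11 and 0.061 within these pairs and at -0.25 to 0.15 in other pairs. The labels do not say more about how replicates were taken, so that a p-value reflects only how far these libraries differ, which may be technical. Alternatives were RLE and upper-quartile scaling, other filters, DESeq2 1.42.0, limma 3.58.1 with voom, the 6 libraries alone, a test against a fold of 1.5, the animal as a block, and omission of single libraries. The test was also tried on simulated counts.

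Gene lists, their classes and the members described were chosen with earlier results of these data known. A gene belongs to 1 list, except markers of cell types. The text draws on genes fixed by their role, on up to 2 called genes per direction and list with the largest difference in mean CPM and no overlap, and on up to 3 per direction and class with the largest fold, and some genes that this rule names are not reported here. Promoters are those of RefSeq on GRCm38.p6, an older build than that of the counts, matched by symbol. Genes with near-identical copies, such as Ccl3 and Ccl4 or the immunoglobulin genes, are uncertain where reads could be shared.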

Additional observations from a re-analysis of the deposited data

How the results depend on the processing

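With the animal as a replicate block, GFP+ cells had 2849 genes higher and 2665 lower, and with a correlation of 0.249 within animals in voom, 3423 and 2738. The block changed no total or class count by over 1.5 times, and the named genes whose call differed with it, Gzma, Il2rg, Cpt1a and Cd8b1, had the same call in the 6 libraries alone without it. Other settings gave between 2186 (upper-quartile scaling) and 2941 (voom) higher genes and between 2256 (voom) and 3095 (upper-quartile scaling) lower genes, and leaving out 1 library gave 2212 to 2495 and 1840 to 2144. Only the fold threshold of 1.5 moved the counts further, to 1207 higher and 939 lower genes in all, 100 higher surface genes, 21 lower secreted genes, 65 higher and 63 lower transcription factor genes, and 80 higher and 55 lower metabolic genes. Sign changes were confined, among the genes named and the settings run, to genes that did not pass in either setting. Under upper-quartile scaling Ikzf1 was at -0.03. When 1 library was left out, Tbx21 ran from -0.08 to 0.51, Ikzf1 from -0.00 to 0.15, Klf2 from -0.15 to 0.01, Il16 from -0.07 to 0.03 and Tgfb1 from -0.08 to 0.07. The cause of these shifts was not tested. At these depths 3 counts equal 0.271 to 0.416 CPM, and genes below that in 1 group carry no fold change here.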
